A study of Gallus gallus with 6 samples.

Results

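The genes described here are the nuclear genes of the respiratory chain, the ATP synthase, the mitochondrial ribosome and the mitochondrial import machinery, measured in a chicken B cell line with and without the transcription factor IRF4. They were taken by symbol from the RefSeq chicken table: every array probe whose accession matched a symbol starting with NDUF, SDHA to SDHD, UQCR, COX followed by a digit, ATP5, MRPL, MRPS, TIMM or TOMM. This rule gave 46 genes with 99 probes, of 4932 named genes with a probe on the array. The rule uses no measured value, although it was set with earlier results of these data known. The table holds 191 symbols that meet the rule, and 145 of them had no probe with a matched accession, so the 46 are a sample of these complexes and not the whole of them. Complex I was represented by 10 of 36 symbols, the large mitoribosomal subunit by 13 of 46, the small one by 7 of 27, the ATP synthase by 3 of 18, outer membrane import by TOMM7 alone (1 of 8) and inner membrane import by none of 11.

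The respiratory chain passes electrons from NADH (complex I) and succinate (complex II) through complex III to oxygen at complex IV, and the proton gradient it builds drives the ATP synthase. A few of its core subunits are encoded and translated inside the mitochondrion by a dedicated ribosome, whereas the other subunits and every protein of that ribosome are nuclear gene products that enter through the translocases of the outer and inner membranes. Proliferating B cells depend on this system for ATP and for precursors of nucleotides. The roles given below for single genes are those known from mammals.

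All samples were untreated cultures of DT40, a B cell line from a chicken bursal lymphoma. There were 3 WT cultures and 3 cultures of DT40 cells deficient in IRF4 (IRF4 knockout), each hybridised to 1 one-colour Agilent array, and the comparison asks which transcripts differ when IRF4 is absent. Per the labels' protocols the cultures within each genotype were independent. The sources used here give neither the way the gene was disrupted nor the number of knockout clones. Errors and p-values cover the spread between these cultures, and differences between clones may lie outside it. Signals are given as log2 of the processed signal minus the 75th percentile of the same array, so a value of 0 lies at that percentile. Differences are log2 fold changes, knockout minus wild type, with limma's standard error. A gene is said to have risen or fallen where limma's Benjamini-Hochberg adjusted p over all 19802 tested features was under 0.05. Heights of different probes are not comparable, and a lower signal can come from fewer cells that express a gene or from less RNA per cell, which cannot be told apart here.

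The arrays had 62.4% to 68.2% of their gene spots well above background and no saturated spot. IRF4 itself stood at 3.16, 2.96 and 2.91 in the WT cultures and at -1.12, -1.37 and -1.13 in the knockout cultures, an 18.6-fold lower signal (log2 -4.21 ± 0.10, limma adjusted p = 5e-07). All 10 B cell markers were well above background on every array, with the log2 of their summed signal at 7.24 to 7.37 in WT and 7.58 to 7.64 in the knockout. Of the 10, 6 rose, 1 fell and 3 did not pass the test, where 40.4% of all features rose and 28.8% fell. The largest rise was that of CD72 (3.21), and the fall that of LYN (-0.95). LYN lies on the chromosome of IRF4, whose genes stood lower in the knockout as a group (median -0.43), as described below. IKZF1 (0.50), on the same chromosome, and BCL11A (0.27), on another that was shifted down, rose. Of 6 T cell markers measured, 4 were well above background on all arrays and CD4 on none. Their sum (6.04 to 6.10 in WT, 6.08 to 6.35 in the knockout) was nearly all CD3D, which did not pass the test, while CD3E (-3.44), CD8A (-1.13) and CD247 (-0.26) fell. Of 4 myeloid markers, CD14, MARCO and CSF3R were well above background on no array, and LYZ fell by 1.69 over the arrays with a value (it had none on that of knockout replicate 1). The 4 summed to -1.84 to -1.69 in WT and to -3.35 and -3.13 in knockout replicates 2 and 3. Fibroblast markers summed to -1.60 to -1.50 in WT and 2.49 to 2.70 in the knockout, because of COL1A2. COL3A1, with a dim signal (-6.56 in WT), rose too, by 0.72. At its best probe DCN was well above background on 0 WT arrays and 1 knockout array, and FN1 on 1 and 2. PDGFRA was above background on no array. The 2 haemoglobin genes measured summed to -3.62 to -3.39 in WT and -3.43 to -3.37 in the knockout, although HBAD rose (0.33) and HBBA fell (-0.93). The part of these markers in the results below was not tested.

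All 46 genes, and all 99 of their probes, were well above background on all 6 arrays, against 89.7% of all tested features. Their median signal was 4.12 in WT and 4.23 in the knockout. In the knockout 19 of the 46 rose (41.3%) and 11 fell (23.9%), and the other 16 did not pass the test. Over all tested features 40.4% rose and 28.8% fell, so the share of these genes that changed was close to the background. Their median log2 fold change was 0.086 against 0.089 over all features. The groups of arrays did not overlap in 34 of the 46 genes (73.9%), against 74.7% of all features.

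The changes were small. COX16 was the only one of the 46 that rose by at least 1.5-fold (2.17%, against 16.4% of all features), and MRPL53, MRPL32, NDUFV3 and MRPL15 were those that fell by as much (8.7%, against 13%). The quartiles of the 46 log2 fold changes lay at -0.13 and 0.25, and those of all features at -0.25 and 0.40. Bright features in general moved less: among the 2521 features at least as bright as the lower quartile of these genes, 6.94% rose and 5.83% fell by at least 1.5-fold. The balance of calls depended on the scaling between arrays, with 19 rises and 11 falls on the 75th percentile, 15 and 15 after quantile scaling, 14 and 15 in the authors' table, and 11 and 16 when arrays were centred on their median. All features moved in the same way, from 40.4% risen and 28.8% fallen to 32.4% and 34.6% on the median.

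**Figure D1:**
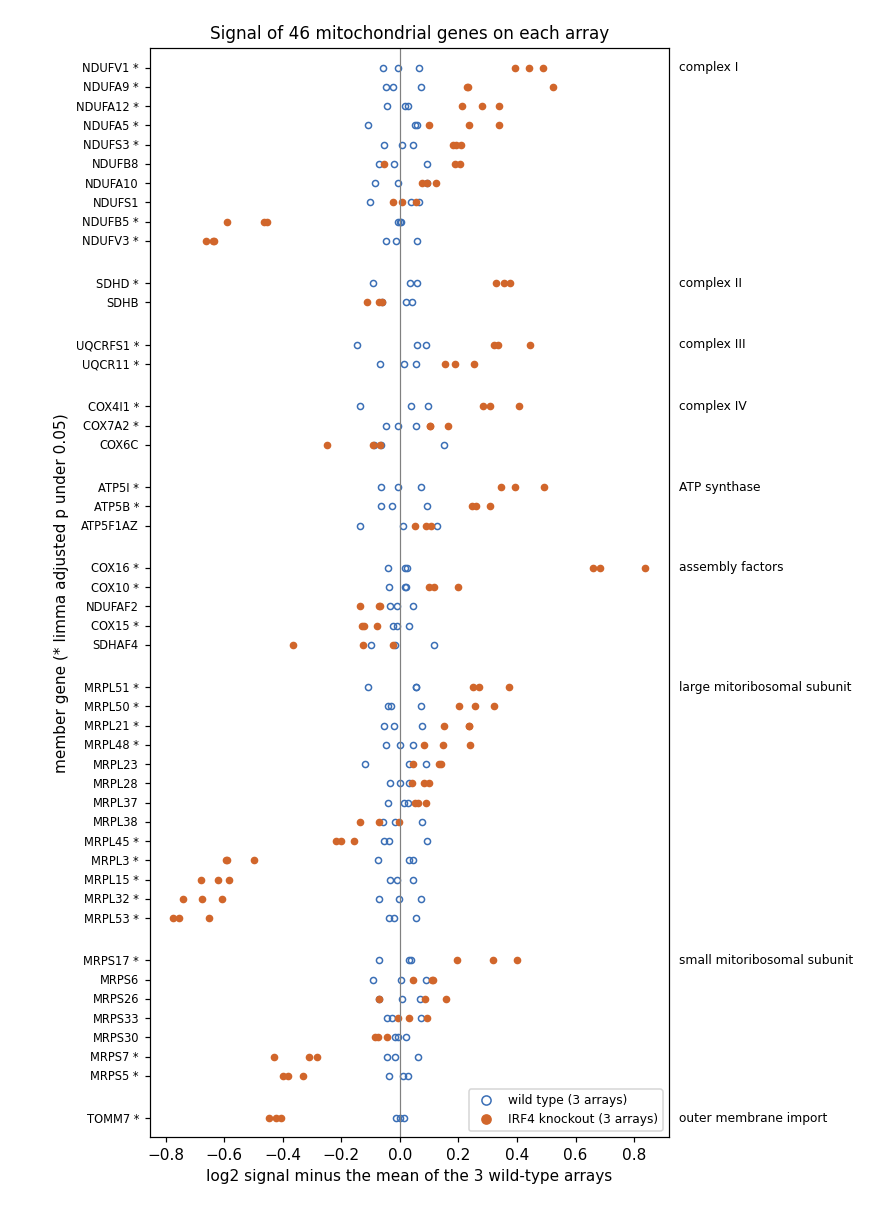
Each row is 1 of the 46 genes, grouped by complex, and the horizontal axis is its log2 signal on each array minus the mean of the 3 WT arrays (open circles WT, filled circles IRF4 knockout, asterisk where limma's adjusted p was under 0.05). Most knockout points lie close to the WT mean, COX16 stands apart at the top end (0.73), and MRPL53, MRPL32, NDUFV3 and MRPL15 at the lower end (-0.73 to -0.63).

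Taken by role, the subunits of complexes I to IV and of the ATP synthase had a higher median than the mitoribosomal proteins. Of 20 such subunits 12 rose, 2 fell and 6 did not pass the test, with a median of 0.20, where 40.4% of all features rose and 28.8% fell with a median of 0.089. Of 20 mitoribosomal proteins 5 rose, 7 fell and 8 did not pass, with a median of 0.05. The difference between these classes was not tested, since genes are not replicates of a condition. The median of the subunits kept its sign under each of the 19 alternative fits (0.11 to 0.22). That of the mitoribosomal proteins crossed 0 (-0.04 to 0.07), being below 0 with median centring, quantile scaling, the authors' table and chromosome medians subtracted. The median of all features moved as well, to -0.00076 with median centring. The mitoribosomal median lay below it in every fit except that without the filter (0.048 against 0.0089). The number of subunits called higher was less stable than their median, at 7 (35%) with median centring, where 32.4% of all features rose, and 4 (20%) with the slide as a fixed block, where 29.6% did.

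Of the 4 slides, 2 held 1 WT and 1 knockout array each. The 19 rises and the 11 falls had the same sign within both of these slides. This was fixed in advance, since the 2 groups of arrays overlapped in none of these genes, so it says nothing about the slides. The median of the subunits was 0.13 within the first and 0.22 within the second, and that of the mitoribosomal proteins -0.01 and 0.07. With the slide as a fixed block, which takes its comparison from these 4 arrays alone, 7 of the 46 still rose (15.2%, against 29.6% of all features) and 9 fell (19.6%, against 23.1%). The 7 were ATP5I, COX16, MRPL21, MRPS17, NDUFV1, SDHD and UQCRFS1.

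Complex I, the NADH dehydrogenase, had 10 measured subunits, of which 5 rose, 2 fell and 3 did not pass the test (median 0.15). Over all features 40.4% rose and 28.8% fell (median 0.089), which is also the background for the classes below. NDUFV1, the flavoprotein that takes electrons from NADH, stood at 2.68, 2.55 and 2.60 in WT and at 3.01, 3.05 and 3.10 in the knockout. Every knockout culture was above every WT culture, a 1.36-fold rise (0.44 ± 0.05, limma adjusted p = 0.00033). NDUFV3, a small accessory subunit that sits beside NDUFV1 at the tip of the peripheral arm, went the other way, from -0.00055, -0.035 and 0.071 to -0.65, -0.62 and -0.63. It fell 1.56-fold (-0.65 ± 0.04, limma adjusted p = 3e-05), with no overlap, and was the dimmest complex I probe of the 10.

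NDUFB5, an accessory subunit of the membrane arm, was the other complex I gene that fell. Its signal was 6.02, 6.01 and 6.01 in WT and 5.55, 5.56 and 5.42 in the knockout, a 1.42-fold fall (-0.50 ± 0.05, limma adjusted p = 0.00018). It lies on the chromosome that carries PIK3CA, whose genes stood lower in the knockout as a group, as described below. NDUFA9, an accessory subunit where the peripheral and membrane arms meet, stood at 3.42, 3.30 and 3.32 in WT and 3.57, 3.87 and 3.58 in the knockout. It rose 1.26-fold (0.33 ± 0.09, limma adjusted p = 0.018), knockout replicate 2 being well above the other knockout cultures. Its call was lost with median centring (0.24, limma adjusted p = 0.069), when the slide was a fixed block (0.36, adjusted p = 0.094), and again without WT replicate 2 (0.30) or WT replicate 3 (0.32, both adjusted p = 0.059).

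NDUFA12, an accessory subunit, and NDUFS3, a core subunit of the peripheral arm, also rose, by 0.28 and 0.19, without overlap. NDUFA10, NDUFB8 and NDUFS1 did not pass the test. NDUFA10 differed by 0.10 at its brightest probe, and its dimmer probes (0.15 and 0.12) were called higher in the fit over probes. NDUFS1, the core subunit that carries several of the iron-sulphur clusters, differed by 0.013, with a 95% interval of -0.13 to 0.15, and that of NDUFB8 ran from -0.09 to 0.32.

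Complex II, succinate dehydrogenase, was represented by SDHB and SDHD, and no probe was matched to SDHA or SDHC. SDHD, a membrane anchor of the complex, stood at 4.57, 4.59 and 4.44 in WT and at 4.91, 4.89 and 4.86 in the knockout. It rose 1.28-fold (0.35 ± 0.05, limma adjusted p = 0.0011) and its groups did not overlap. SDHB, the iron-sulphur subunit, stood at 4.94, 4.83 and 4.92 in WT and 4.82, 4.83 and 4.78 in the knockout (-0.08 ± 0.04, limma adjusted p = 0.14), and its groups met at the lowest WT culture. The 95% interval for SDHB ran from -0.19 to 0.02. Its dimmer probe gave -0.11 and was called lower in the fit over probes. SDHB became a called fall with the authors' table (-0.19, limma adjusted p = 0.0042), with quantile scaling (-0.19), with median centring (-0.17), with the mean of its probes (-0.10) and with chromosome medians subtracted (-0.23).

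Both measured subunits of complex III rose (median 0.28), where 40.4% of all features rose. UQCRFS1, the Rieske iron-sulphur protein, stood at 5.06, 5.03 and 4.83 in WT and at 5.42, 5.31 and 5.30 in the knockout, a 1.29-fold rise (0.37 ± 0.08, limma adjusted p = 0.0053). WT replicate 3 was low against the other WT cultures, and all knockout cultures were above all WT cultures. UQCR11, a small accessory subunit, rose by 0.20.

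In complex IV, cytochrome c oxidase, 2 of 3 measured subunits rose (median 0.12), against 40.4% of all features. COX4I1, the nuclear subunit through which ATP regulates the enzyme, stood at 5.84, 5.61 and 5.79 in WT and at 6.03, 6.06 and 6.16 in the knockout. It rose 1.26-fold (0.33 ± 0.07, limma adjusted p = 0.0068) without overlap, and missed the threshold with the slide as a fixed block (0.32, adjusted p = 0.065). COX7A2, a small accessory subunit, rose by 0.12. COX6C, another accessory subunit, differed by -0.14 and did not pass (95% interval -0.34 to 0.07).

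Of the 3 measured ATP synthase subunits 2 rose (median 0.27), against 40.4% of all features. ATP5I, the small subunit e of the membrane part, stood at 5.44, 5.31 and 5.37 in WT and at 5.72, 5.77 and 5.86 in the knockout. It rose 1.33-fold (0.41 ± 0.06, limma adjusted p = 0.00098), every knockout culture being above every WT culture. ATP5B, the catalytic beta subunit, rose by 0.27. ATP5F1AZ, the Z-linked gene of the alpha subunit, differed by 0.08 at its brightest probe, which did not pass the test, and its other 5 probes were all called higher, by 0.17 to 0.26. RefSeq also lists a W-linked copy of this gene, and whether these probes also detect it was not tested.

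**Figure D2:**
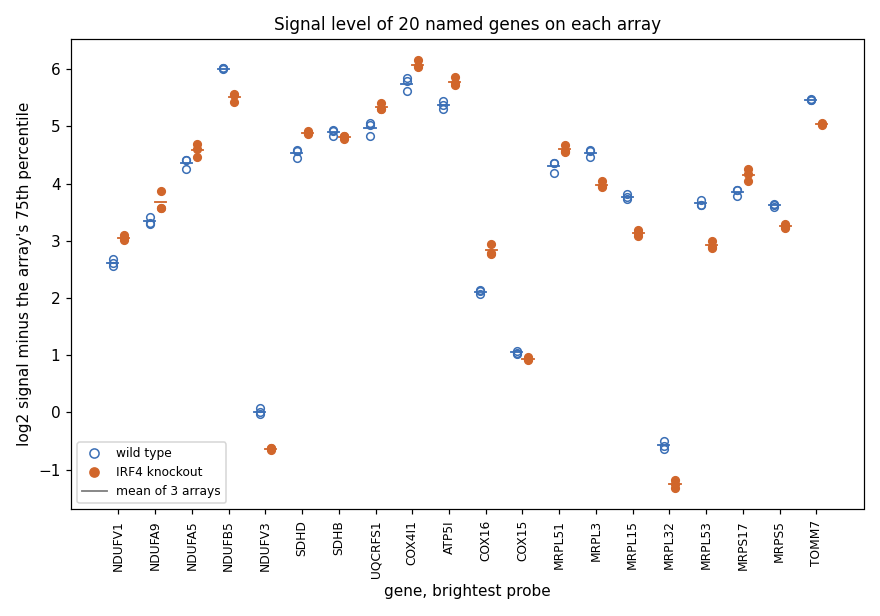
The vertical axis is the log2 signal minus the 75th percentile of the array for 20 of the 46 genes, with 3 WT arrays (open circles) and 3 IRF4 knockout arrays (filled circles) per gene and a dash at each group mean. Heights of different genes are not comparable. The groups overlap in SDHB alone of the 20, which follows from the choice of genes, since all the others were called. Over all features the groups did not overlap in 74.7%.

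Of 5 assembly factors 2 rose, 1 fell and 2 did not pass the test (median -0.09). Among all features 40.4% rose and 28.8% fell. COX16, which helps to fit the copper centre of complex IV, stood at 2.14, 2.07 and 2.13 in WT and at 2.77, 2.95 and 2.79 in the knockout. It rose 1.65-fold (0.73 ± 0.06, limma adjusted p = 8e-05), the largest rise of the 46, and kept its call under all 19 alternative fits. COX15, which makes the haem A of the same complex, stood at 1.08, 1.03 and 1.04 in WT and 0.97, 0.92 and 0.92 in the knockout. Its fall of 0.11 (± 0.04, limma adjusted p = 0.037) was without overlap, but was lost under 10 alternatives, among them 5 of the 6 fits without 1 culture (adjusted p of 0.070 to 0.098).

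COX10, which acts just before COX15 in haem A synthesis, rose by 0.14. NDUFAF2, an assembly factor of complex I, and SDHAF4, one of complex II, did not pass the test. SDHAF4 was by far the dimmest of the 46 (-5.02 in WT) and had a 95% interval of -0.42 to 0.08.

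The large mitoribosomal subunit held the largest falls. Of its 13 measured proteins 4 rose, 5 fell and 4 did not pass the test (median 0.07). Among all features 40.4% rose and 28.8% fell. MRPL53 stood at 3.71, 3.62 and 3.63 in WT and at 2.90, 3.00 and 2.88 in the knockout, a 1.65-fold fall (-0.73 ± 0.05, limma adjusted p = 4.2e-05). MRPL32, whose maturation by a protease of the inner membrane is a step in ribosome assembly, stood at -0.51, -0.58 and -0.65 in WT and at -1.19, -1.25 and -1.32 in the knockout. It fell 1.6-fold (-0.68 ± 0.06, limma adjusted p = 9.4e-05). In both genes every knockout culture lay below every WT culture.

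MRPL15 stood at 3.81, 3.73 and 3.76 in WT and at 3.18, 3.09 and 3.14 in the knockout and fell 1.55-fold (-0.63 ± 0.04, limma adjusted p = 4.2e-05). MRPL3 stood at 4.57, 4.47 and 4.59 in WT and at 3.95, 4.04 and 3.95 in the knockout and fell 1.48-fold (-0.56 ± 0.05, limma adjusted p = 0.00014). All 4 of these genes lie on the chromosome that carries IRF4. The other fall, MRPL45 (-0.19 ± 0.05, limma adjusted p = 0.017), lies elsewhere and belongs to a protein at the exit of the ribosome's peptide tunnel.

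Of the 4 large-subunit genes that rose, MRPL51 had the largest change. It stood at 4.36, 4.36 and 4.19 in WT and at 4.67, 4.55 and 4.57 in the knockout, a 1.23-fold rise (0.30 ± 0.06, limma adjusted p = 0.0061) that missed the threshold with the slide as a fixed block (0.26, adjusted p = 0.057). Its dimmer probe gave 0.09 and was not called. MRPL50, MRPL21 and MRPL48 rose by 0.26, 0.21 and 0.16, and MRPL23, MRPL28, MRPL37 and MRPL38 did not pass, with values from -0.07 to 0.11. Of the 4 probes of MRPL23, 2 dimmer ones (0.14 and 0.13) were called higher in the fit over probes.

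The small mitoribosomal subunit had 7 measured proteins, of which 1 rose, 2 fell and 4 did not pass the test (median 0.04). Among all features 40.4% rose and 28.8% fell. MRPS17 stood at 3.89, 3.88 and 3.78 in WT and at 4.17, 4.25 and 4.05 in the knockout, a 1.23-fold rise (0.30 ± 0.07, limma adjusted p = 0.0065). MRPS5 stood at 3.63, 3.59 and 3.65 in WT and at 3.22, 3.24 and 3.29 in the knockout, a 1.29-fold fall (-0.37 ± 0.04, limma adjusted p = 0.00028). Neither gene's groups overlapped. MRPS7 fell by 0.34 at its brightest probe, by 0.14 at a dimmer probe, and its remaining probe gave -0.10 and was not called. MRPS6, MRPS26, MRPS30 and MRPS33 did not pass, with values from -0.07 to 0.09.

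TOMM7, a small subunit of the outer membrane translocase that tunes the assembly of its pore, was the 1 import gene measured. It stood at 5.48, 5.45 and 5.47 in WT and at 5.06, 5.04 and 5.02 in the knockout, a 1.34-fold fall (-0.43 ± 0.03, limma adjusted p = 8e-05). The cultures of each group lay close together and the groups were far apart.

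Of the 11 falls 7 lay on 3 chromosomes whose genes stood lower in the knockout as a group. On the GRCg7b assembly, which served only for which genes share a chromosome, 4 of the chromosomes with at least 20 tested genes had a median log2 fold change at least 0.25 away from that of the 3830 placed genes (0.05). The 3 that were shifted down carry PIK3CA (-0.65), IRF4 and MYC (-0.43), and FYN (-0.39), and together hold 10 of the 46 genes. Of these 10, 7 fell, 1 rose and 2 did not pass the test (median -0.46). Among the 746 named genes on the same chromosomes 70.4% fell and 12.5% rose. Falls of at least 1.5-fold made up 30% of the 10 genes and 36.2% of the 746. The chromosome shifted up (0.51), which carries ID3, holds none of the 46.

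The chromosome of IRF4 holds 6 of the genes: MRPL53, MRPL32, MRPL15, MRPL3 and TOMM7, which fell, and COX6C, which did not pass the test. Its median without them was -0.42, so MRPL53, MRPL32, MRPL15 and MRPL3 lay below their chromosome and COX6C above it. TOMM7 was itself the median gene of that chromosome. The chromosome of FYN holds MRPS5, which fell, SDHAF4, which did not pass, and COX7A2, which rose by 0.12 where the other genes had a median of -0.39. The chromosome of PIK3CA holds NDUFB5 alone, at -0.50 where the median was -0.65.

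With each array centred on the median of each chromosome, 4 of these 7 falls were still called: MRPL53 (-0.29), MRPL32 (-0.24), MRPL15 (-0.20) and MRPL3 (-0.13, limma adjusted p = 0.048). In that fit 34.8% of the 46 were called higher and 26.1% lower, against 34.1% and 34.3% of all 3789 genes fitted. MRPS5 (0.03) and TOMM7 (0.0064) moved to about 0 and lost their calls. NDUFB5 turned to a rise (0.14, limma adjusted p = 0.014), COX6C became a called rise (0.30), and COX7A2 rose by 0.52. Neither the cause of the chromosome shifts nor its part in these falls was tested.

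Away from the 4 shifted chromosomes lay 36 of the genes, of which 18 rose, 4 fell and 14 did not pass the test (median 0.13). Among the 3019 named genes there 43.8% rose and 22.5% fell. The 4 falls were NDUFV3, MRPS7, MRPL45 and COX15, and only that of NDUFV3 reached 1.5-fold. The chromosomes that hold these genes and at least 20 genes in all had medians between 0.07 and 0.17. Of the 17 respiratory subunits there 11 rose and 1 fell (median 0.23), and of the 15 mitoribosomal proteins 5 rose and 2 fell (median 0.07). With chromosome medians subtracted 13 of the 18 rises and all 4 falls were still called, and SDHB, NDUFAF2, MRPL38 and MRPS30 became called falls. That made 36.1% of the 36 called higher and 22.2% lower, against 34.1% and 34.3% of the 3789 genes of that fit.

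The nearest genes were also compared. For 43 of the genes the 10 nearest tested genes outside the set could be taken, and across these 43 the gene's own log2 fold change had a Pearson correlation of 0.60 and a Spearman correlation of 0.40 with the median of its neighbours. The points share libraries and chromosomes, so this is a description. They include the 10 genes on the 3 chromosomes shifted down, all with neighbour medians below 0. The correlation over the other genes alone was not computed, so 0.60 and 0.40 do not show whether genes on the other chromosomes go with their neighbours. Of 18 rises among the 43, 15 had a neighbour median above 0. The unshifted chromosomes that hold these genes had medians above 0 themselves (0.07 to 0.17). Of 10 falls 7 had a neighbour median below 0, and these were the falls on the chromosomes shifted down. The other falls, of NDUFV3, COX15 and MRPL45, had neighbour medians of 0.23, 0.19 and 0.05. COX7A2 rose although its neighbours had a median of -0.33.

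**Figure D3:**
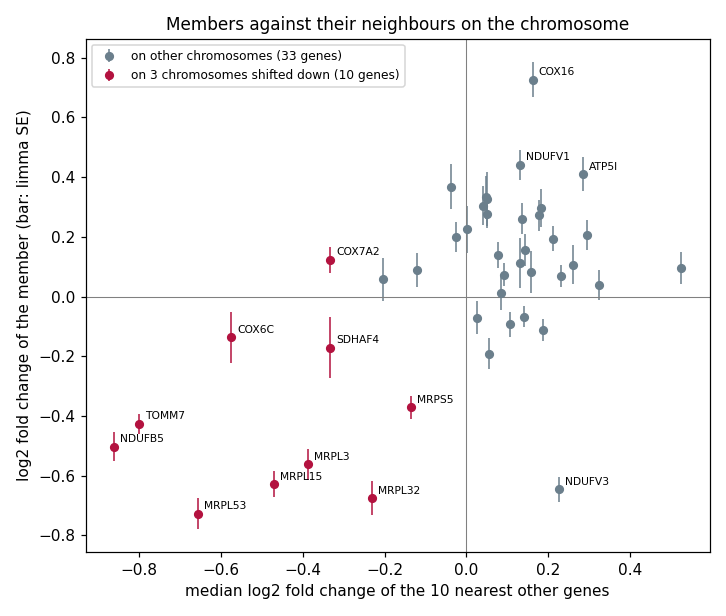
For 43 genes the vertical axis is the log2 fold change (bar: limma standard error) and the horizontal axis the median log2 fold change of the 10 nearest tested genes outside the set. The 10 genes on the 3 chromosomes shifted down lie at the left, all but COX7A2 below 0, and NDUFV3 stands alone at the lower right with neighbours at 0.23.

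The array held several probes for 32 of the genes. In 29 of these all probes had the same sign, and the median spread between probes of a gene was 0.057. MRPL21, NDUFA5 and NDUFS1 had probes of both signs, and only in NDUFA5 were probes called in opposite directions. NDUFA5, an accessory subunit of complex I, stood at 4.41, 4.42 and 4.25 in WT and 4.60, 4.46 and 4.70 in the knockout at its brightest probe, a 1.17-fold rise (0.23 ± 0.08, limma adjusted p = 0.042). Its other probes gave -0.22 and -0.20, both called lower in the fit over probes. With the mean of the 3 probes the value was -0.06 and not called, and the rise was lost under 12 further alternatives, so its direction rests on the choice of probe. The rise of MRPL21 also rested on its brightest probe (0.21), since its others gave -0.0011 and 0.04.

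**Figure D4:**
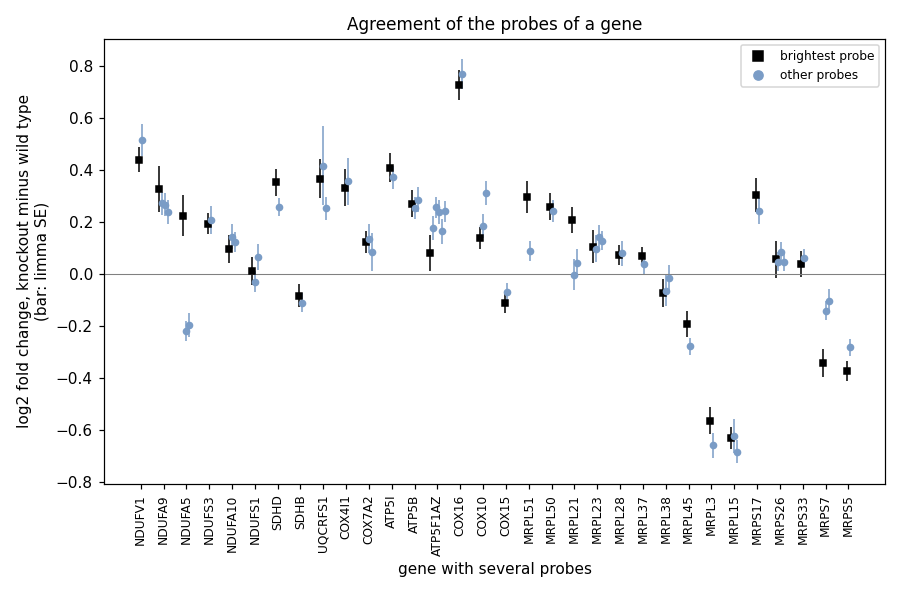
Log2 fold change of every probe, knockout minus wild type, for the 32 genes with several probes (squares brightest probe, circles other probes, bars limma standard error). The probes of a gene lie together in most genes, and NDUFA5 has its brightest probe at 0.23 and its others at -0.22 and -0.20.

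WT replicate 1 gave the highest of the 3 WT values in 34 of the 46 genes, and stood a median of 0.052 above the gene's WT mean, against 0.018 over all features. Without it the median of the 46 was 0.14 in place of 0.086. There were then 17 rises (37%, against 39.5% of all features) and 10 falls (21.7%, against 26.8%). Knockout replicate 2 was the highest of its group in 23 of the 46.

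**Figure D5:**
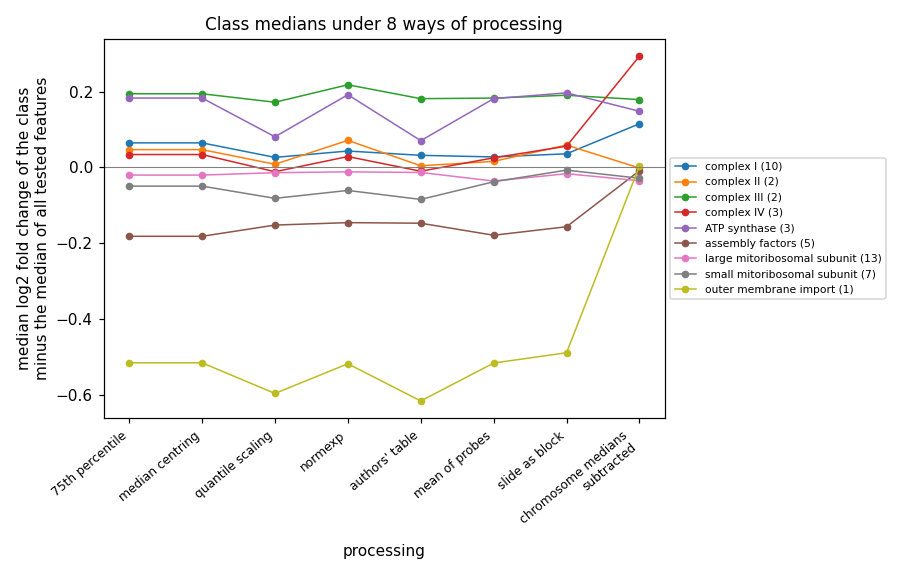
The vertical axis is the median log2 fold change of each class minus the median of all tested features, under 8 ways of processing, with the number of genes in brackets and lines that join the values of a class. Complex I, complex III and the ATP synthase lie above 0 throughout (0.03 to 0.12, 0.17 to 0.22 and 0.07 to 0.20). TOMM7 goes from -0.52 to 0.0040 once chromosome medians are subtracted.

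Partners of these complexes outside the rule were read from lists made with earlier results of these data known. Their counts stand beside 40.4% risen and 28.8% fallen of all features. Of 6 genes of mitochondrial DNA expression none rose and 1 fell (median -0.08): MTERF3, a repressor of mitochondrial transcription, by 1.07. Of 2 mitochondrial translation factors MTIF2, the initiation factor, fell by 0.49. Of 7 further assembly factors 1 rose and 2 fell (median -0.07), with BCS1L, which inserts the Rieske protein into complex III, at 0.27 and TMEM70, an ATP synthase assembly factor, at -0.93. Of 10 import partners 2 rose and 2 fell, with SPG7, a subunit of the protease that processes MRPL32, at 0.54 and the protease YME1L1 at -0.29. Of 6 carriers and cytochrome c genes 2 rose and 2 fell, with the ADP/ATP carriers SLC25A6 at 0.68 and SLC25A4 at -0.32. MTERF3, MTIF2, TMEM70 and YME1L1 lie on the chromosomes shifted down.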

How the data were processed

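Total RNA of 3 WT and 3 IRF4 knockout DT40 cultures was labelled with Cy3 and hybridised to one-colour Agilent arrays, per the labels' protocols. Per the file headers the authors read the arrays with Feature Extraction 10.7.1.1, and the deposited intensity values used are its background-subtracted processed green signals on a linear scale. Flags for outliers and for spots above background came from the same deposited files. The authors' processed table, also of linear intensity, served as an alternative. Limma and R 2.12.0 appear in the submitters' processing notes, without their role.

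The log2 signal of each spot was set relative to the 75th percentile of its array's gene spots. Control spots and those flagged as outliers did not enter, and spots of a probe were averaged. Probes had to be well above background on every array of 1 group or the other, and the brightest probe stood for a gene. Accessions were matched to RefSeq (GRCg7b), which named 10691 of 43603 probes (24.5%); unnamed accessions stayed as features. SDHAF4 entered because its symbol starts with SDHA. The test was limma's moderated comparison of both groups, two-sided (version 3.58.1, in R 4.3.3), over 19802 features. The fitting code was also run on simulated data with independent noise and few changed features. The real data differ from that, so the run does not bear on the calls. An exact permutation test of 3 against 3 cannot go below 0.1, so none is given. The number of arrays limits the precision.

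The genes, lists and classes were chosen with earlier results of these data known, and the limit of 0.25 for a shifted chromosome after the data were seen. Genes given with every value are the 8 largest rises and falls, the largest called change of each class and direction, any gene with probes called both ways, and SDHB and SDHD; from each other list, the largest called rise and fall, of which 1 is not reported here. The further genes named complete the counts or were chosen after their values were seen. List genes matched only through a synonym (8) were left out. Alternatives covered scaling, background, filter, probe choice, slide, replicate number, chromosome and each culture left out.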

Additional observations from a re-analysis of the deposited data

How the results depend on the processing

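The precision is set by 3 arrays a group, and all 46 genes were well above background. The genes called higher numbered 19 (41.3%, against 40.4% of all features). They were 11 with median centring (23.9%, against 32.4%) and 7 with the slide as a fixed block (15.2%, against 29.6%). When 1 culture was left out they were 14 to 17 (30.4% to 37%, against 34.5% to 39.5%). Called lower were then 10 each time (21.7%, against 26.6% to 27.5%), with 1 at least 1.5-fold higher and 4 to 5 as much lower. In the main fit 16.4% of all features were called and at least 1.5-fold higher and 13% as much lower. Those shares were not computed for the other fits. Keeping only the 36 genes off the 4 shifted chromosomes was an alternative chosen after seeing the data. Of these 18 were called higher (50%) and 4 lower (11.1%), where 43.8% of the named genes there rose and 22.5% fell. At least 1.5-fold lower was 1 of the 36 (2.78%, against 8.71% of those named genes). With chromosome medians subtracted 1 of the 46 fell as much. Cultures with the same replicate number had deviations with correlations of -0.026, -0.012 and -0.015, which cannot show whether they were handled in pairs. Those numbered 1 and those numbered 2 also shared a slide, so replicate number and slide cannot be told apart there. With a replicate block 15 were called higher (32.6%, against 38.2% of all features) and 10 lower (21.7%, against 27.5%), and NDUFA5 and COX15 were not called.

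Class medians are given relative to all features. With chromosome medians subtracted that of complex I went from 0.06 to 0.12, complex IV from 0.03 to 0.29, assembly factors from -0.18 to -0.0089, and complex II (-0.0016 from 0.05) and TOMM7 (0.0040 from -0.52) changed sign. Off the shifted chromosomes complex I was at 0.11, complex IV, 1 gene, at 0.24 and assembly factors at -0.066. Without the filter, where the median of all features was 0.0089, the values were 0.26 for the ATP synthase, -0.10 for assembly factors, 0.14, 0.13, 0.27 and 0.11 for complexes I to IV, 0.060 for the large and 0.031 for the small mitoribosomal subunit, a change of sign, and -0.44 for TOMM7. With the authors' table the ATP synthase was at 0.071, complex II at 0.0043, the small subunit at -0.084 and TOMM7 at -0.62. Quantile scaling gave 0.081, 0.0084 and -0.60 for the ATP synthase, complex II and TOMM7. The slide as a fixed block gave -0.0071 for the small subunit and -0.49 for TOMM7. Within the first shared slide the ATP synthase was at 0.11, assembly factors at -0.083, the large subunit at -0.10 and TOMM7 at -0.48, and within the second the ATP synthase was at 0.28, complex IV at 0.12 and the small subunit, with a change of sign, at 0.016. Complex IV was just below 0 with the authors' table (-0.010), quantile scaling (-0.011) and within the first slide (-0.0068). Without 1 culture the small subunit ranged from -0.088 to -0.028, TOMM7 from -0.52 to -0.49, complex I from 0.037 to 0.10, complex IV from 0.0074 to 0.053 and the large subunit from -0.048 to -0.017. Without the filter the medians of the 46, of the subunits and of the mitoribosomal proteins stayed at 0.086, 0.20 and 0.048. Only the median of all features moved in that fit, from 0.089 to 0.0089. Apart from that fit and the chromosome settings, which shift the genes by construction, the cause of these moves was not tested.

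Of the 20 genes given with every value, MRPS5 (0.026), NDUFB5 (0.14) and TOMM7 (0.0064) changed sign with chromosome medians subtracted and NDUFA5 (-0.063) with the mean of its probes; SDHB, not called, was at 0.0011 within the second slide. ATP5I, COX16, MRPL15, MRPL3, MRPL32, MRPL53, MRPS17, NDUFV1, NDUFV3, SDHD and UQCRFS1 kept direction and side of the threshold under all alternatives tested.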

Other observations

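The enzymes that feed the respiratory chain were read from the same kind of list. Of 15 genes of the TCA cycle and pyruvate dehydrogenase 5 rose, 5 fell and 5 did not pass limma's test (median log2 fold change 0.05). DLAT, the acetyltransferase of pyruvate dehydrogenase, was at 0.91, read from a dim signal (-4.24 in WT). PDHB, a subunit of the same complex, was at 0.49, and IDH2, the NADP-dependent isocitrate dehydrogenase, at 0.46. FH, the fumarase, was at -0.56 and PDK1, a kinase that inhibits pyruvate dehydrogenase, at -0.45. FH lies on the chromosome of IRF4, which was shifted down (median -0.43). Of 13 genes of glycolysis 5 rose, 1 fell and 7 did not pass the test (median 0.12), where 40.4% of all features rose and 28.8% fell. HK1, a hexokinase, was at 0.48 and ENO1, the enolase, at 0.34.

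Over the 7 lists outside the rule 59 genes were tested, of which 15 rose and 14 fell. The 8 of them on the chromosomes shifted down all fell (median -0.44), and of the other 51, 15 rose and 6 fell (median 0.05). Among the 746 named genes on the chromosomes shifted down 70.4% fell. Among the 3019 off the shifted chromosomes 43.8% rose and 22.5% fell, and among all tested features 40.4% rose and 28.8% fell.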
